A study of Mus musculus with 10 samples.

Results

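The genes described here are 49 genes of cell proliferation in mouse fibroblasts: 22 genes of mitosis, 20 genes of DNA replication and 7 regulators of the step from G1 into S phase. They were taken as a list of known cell cycle genes, by symbol and not by a cut-off on measured values. Earlier results of these data were known when the list was chosen. Of the 49 genes, 45 have a row of their own among the 14248 gene symbols of the deposited table: 22 mitotic genes, 17 replication genes and 6 G1/S regulators. Mcm7 is present only in a row joined with Taf6, and E2f1 only in a row joined with Necab3, so their values are given for the joined rows and enter no count. Gins2 and Cdt1 were not analysed here. All 45 genes passed the filter on low values, and the lowest single value among them was 3.73 RPKM (a read count divided by transcript length and library size), so none passed through 1 group of libraries alone.

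The libraries came from 10 cultures of NIH3T3, mouse embryo fibroblasts kept as an established line. The controls were 1 culture of parental cells and 1 culture stably carrying the vector. The other cultures were 4 clones with stable overexpression of FOXP2, a forkhead transcription factor, and 4 clones with stable overexpression of a construct named FOXP2-CPED1. Every culture gave 1 library. Errors within a construct therefore describe differences among its clones, and a value of 1 clone has no replicate of its own. The labels do not say that either control is a clone, so what cloning does and what a construct does cannot be told apart. Neither the promoter driving the constructs nor the species of the inserts is stated in those labels. The row of the mouse gene Foxp2 stood between 0.0674 and 1.02 RPKM in all 10 libraries, and it does not check the labels.

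The summed RPKM of a library lay between 794682 and 944602, and relative depth lay between 0.913 and 1.32 of the parental library. Absolute depth is unknown, so no counting error could be given. The mitochondrial rows were listed at 0 in FOXP2 clones 2 and 4 and FOXP2-CPED1 clone 3, and values without these 3 libraries are given where they move a result. Of 9 fibroblast markers, 8 had a row and reached the filter, with a summed level of 9041 to 9144 RPKM in the controls, 5992 to 8235 in the FOXP2 clones and 6423 to 8976 in the FOXP2-CPED1 clones. The other cell type lists had 1 row each, which were Cdh1 of 7 epithelial markers at 0.584 to 2.37 RPKM, Cdh5 of 6 endothelial markers at 0.0182 to 0.536 RPKM and Cd14 of 9 blood markers at 7.13 to 19.6 RPKM.

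A dividing cell copies its DNA in S phase and separates the copies in mitosis, and the genes for each step are transcribed in waves. Cyclin D proteins and MYC act early in G1, where cyclin D kinases phosphorylate the RB protein and release E2F factors, which switch on the replication genes. The mitotic genes follow in G2, when repression by the DREAM complex at CHR elements is lifted and B-MYB, FOXM1 and the CCAAT factor NF-Y drive transcription. In bulk RNA, a larger share of cells in a phase and more RNA per cell cannot be told apart.

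Promoter windows from RefSeq (build GRCm38.p6) were matched to 38 of the 49 genes, which have 43 windows, and the 250 bases before each start were searched on both strands. The letters were TTTGAA or TTCGAA for the CHR, CCAAT for the CCAAT box, and TTTCGCGC, TTTGGCGC, TTTCCCGC or TTTGCCGC for an E2F site, and a match was counted whether or not it overlapped another. CHR letters were in 9 of 19 mitotic windows (47.4%), 4 of 20 replication windows (20%) and 0 of 4 G1/S windows, against 17.1% of all 32851 windows. CCAAT letters were in 17 of 19 mitotic windows (89.5%), 15 of 20 replication windows (75%) and 1 of 4 G1/S windows (25%), against 33.8% of all windows. Both together were in 9 of 19 mitotic windows (47.4%), 3 of 20 replication windows (15%) and 0 of 4 G1/S windows, against 6.02% of all. The E2F letters were in 5 of 20 replication windows (25%) and 1 of 19 mitotic windows (5.26%), against 1.86% of all. These matches describe the letters and show no binding.

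The following sequences are the 150 bases before the start, 5′ to 3′ on the gene's strand, of the 3 mitotic genes with CHR letters there and the 3 replication genes with E2F letters there whose levels varied most between the 8 clones. They are shown so that the letters can be read in genes with a wide spread between clones. In the first 3 the capitals mark CHR and CCAAT letters on either strand, and in the last 3 they mark the E2F letters. Ube2c is at chr2:164769779-164769928, plus strand, Cdc20 at chr4:118437344-118437493, minus strand, and Prc1 at chr7:80294326-80294475, plus strand. Mcm6 is at chr1:128359706-128359855, minus strand, Mcm5 at chr8:75109359-75109508, plus strand, and Cdc6 at chr11:98908001-98908150, plus strand.
Ube2c: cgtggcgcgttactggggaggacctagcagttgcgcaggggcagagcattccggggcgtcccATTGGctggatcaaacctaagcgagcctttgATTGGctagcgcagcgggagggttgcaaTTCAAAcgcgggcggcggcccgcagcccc
Cdc20: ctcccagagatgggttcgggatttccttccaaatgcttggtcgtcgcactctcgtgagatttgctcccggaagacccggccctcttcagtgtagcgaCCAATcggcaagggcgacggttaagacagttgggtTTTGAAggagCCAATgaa
Prc1: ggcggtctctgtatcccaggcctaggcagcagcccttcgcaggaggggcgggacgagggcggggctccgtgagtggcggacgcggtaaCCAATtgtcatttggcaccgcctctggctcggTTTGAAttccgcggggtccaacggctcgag
Mcm6: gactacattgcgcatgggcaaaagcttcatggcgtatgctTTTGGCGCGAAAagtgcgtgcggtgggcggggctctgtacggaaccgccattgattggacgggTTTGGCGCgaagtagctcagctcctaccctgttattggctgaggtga
Mcm5: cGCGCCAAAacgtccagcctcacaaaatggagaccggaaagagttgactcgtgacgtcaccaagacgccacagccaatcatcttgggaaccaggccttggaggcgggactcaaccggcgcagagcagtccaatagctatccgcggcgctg
Cdc6: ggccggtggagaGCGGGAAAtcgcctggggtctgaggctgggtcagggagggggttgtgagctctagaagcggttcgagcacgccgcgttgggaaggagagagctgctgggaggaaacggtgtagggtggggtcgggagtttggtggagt

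No proliferation gene passed the test between a construct and the controls, while single clones stood far apart for most of these genes. No gene of the 45 passed limma's test (adjusted p under 0.05) in FOXP2 clones against the controls, in FOXP2-CPED1 clones against the controls, or between the constructs. Among all 12842 rows tested, 0.0389% were called higher and 0.397% lower with FOXP2, 0.0234% higher and 0.327% lower with FOXP2-CPED1, and 0% in either direction between the constructs. At an unadjusted p under 0.05 there were 2 of 45 genes with FOXP2, 2 with FOXP2-CPED1 and 1 between the constructs, against 8.52%, 7.28% and 2.16% of all rows, so these counts are near or under the background. The 2 are Ccnd3 and Myc in both comparisons with the controls, and the 1 is Ccnd3. Both comparisons with the controls use the same 2 control libraries. A p that misses the threshold does not show that the levels are alike, and the standard errors below give the precision.

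Read by clone, 3 libraries stood apart. FOXP2 clone 2 had a median of 0.52 over the 22 mitotic genes and 1.12 over the 17 replication genes, as the log2(RPKM + 1) difference from the control mean. FOXP2-CPED1 clone 4 had medians of 0.66 and 0.91, and FOXP2 clone 3 had medians of -0.77 and -0.72. In the other 5 clones the mitotic median lay between -0.33 and 0.03 and the replication median between -0.28 and 0.06. The median over all tested rows lay between -0.01 and 0.01 in each library. All 22 mitotic and all 17 replication genes were above the control mean in FOXP2 clone 2, and likewise in FOXP2-CPED1 clone 4. In FOXP2 clone 3 only Top2a of the mitotic and Tyms of the replication genes were above it.

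Smaller shifts were also one-sided in FOXP2-CPED1 clone 3, and in FOXP2-CPED1 clones 1 and 2 for the mitotic but not the replication genes. FOXP2-CPED1 clone 3 had 20 of 22 mitotic, 15 of 17 replication and 6 of 6 G1/S genes below the control mean, with medians of -0.33, -0.28 and -0.48. In FOXP2-CPED1 clones 1 and 2, 19 and 18 of 22 mitotic genes were below it, but 7 and 9 of 17 replication genes. Of the 63 further mitotic genes described below, 30 and 35 were below it in these clones, with medians of 0.02 and -0.01. The 2 high clones carry different constructs, and the low clone carries the same construct as 1 of the high clones.

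**Figure D1:**
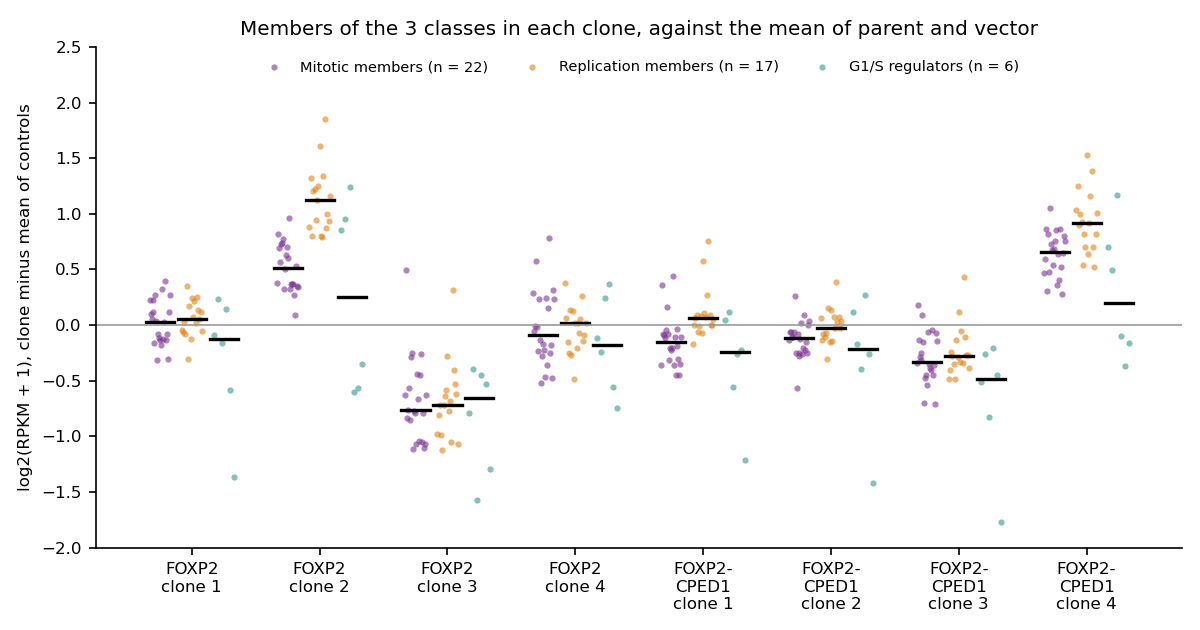
Difference of each gene from the mean of the 2 controls in each of the 8 clones, as log2(RPKM + 1), with points for genes and bars for the median of the 22 mitotic, 17 replication and 6 G1/S genes. FOXP2 clone 2 and FOXP2-CPED1 clone 4 lie above 0 for mitotic and replication genes, FOXP2 clone 3 lies below, and the mitotic and replication medians of the other 5 clones lie between -0.33 and 0.06.

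Replication genes were shifted more than mitotic genes in FOXP2 clone 2. There the replication genes ranged from 0.79 to 1.85 and the mitotic genes from 0.09 to 0.97. All 17 replication genes were above the mitotic median, and 0 of 22 mitotic genes were above the replication median. The replication median exceeded the mitotic median by 0.60 in this clone, by 0.25 in FOXP2-CPED1 clone 4 and by 0.05 in FOXP2 clone 3. In FOXP2-CPED1 clone 4, 14 of 17 replication genes were above the mitotic median and 1 of 22 mitotic genes was above the replication median. In FOXP2-CPED1 clone 1, where the mitotic median was -0.15 and the replication median 0.06, the gap was 0.21. After quantile normalization the medians of FOXP2 clone 2 were 0.38 and 0.89, a gap of 0.50. These are single libraries, and the gap between the classes was not tested.

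The 2 high clones differed in which class they led. FOXP2 clone 2 was the highest of the 10 libraries for 14 of 17 replication genes but for 5 of 22 mitotic genes. FOXP2-CPED1 clone 4 was the highest for 16 of 22 mitotic genes but for 3 of 17 replication genes. Over all tested rows these libraries were highest for 23.6% and 9.94%. FOXP2 clone 3 was the lowest for 18 of 22 mitotic and 16 of 17 replication genes, against 17.3% of all rows. By an estimate from low values, FOXP2 clone 2 had 1.1 times the depth of the parental library, FOXP2 clone 3 had 1.01 times and FOXP2-CPED1 clone 4 had 1.32 times. The summed fibroblast markers were 5992 RPKM for FOXP2 clone 2, 8235 for FOXP2 clone 3 and 6423 for FOXP2-CPED1 clone 4. They were 7387 and 7028 for FOXP2 clones 1 and 4, and 7671, 8976 and 8251 for FOXP2-CPED1 clones 1 to 3. The part of depth or of these markers in the result was not tested.

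The spread between clones was wide for nearly all of the genes. The SD of log2(RPKM + 1) over the 8 clones had a median of 0.47 for mitotic genes (0.32 to 0.60), 0.62 for replication genes (0.42 to 0.78) and 0.50 for G1/S regulators (0.14 to 0.97). The median over all tested rows was 0.28, and 44 of the 45 genes lay above it, with Ccnd3 as the exception. Within the FOXP2 clones alone the medians were 0.57, 0.79 and 0.54, against 0.30 for all rows. Within the FOXP2-CPED1 clones they were 0.44, 0.48 and 0.42, against 0.23.

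Counting genes at least 2-fold from the control mean on the log2(RPKM + 1) scale gave the same clones. FOXP2 clone 2 had 11 of 45 genes higher and 0 lower, against 4.3% and 4.98% of all tested rows. The 11 were Mcm3, Mcm5, Mcm6, Pcna, Gins1, Cdc6, Rrm2, Tyms, Fen1, Uhrf1 and Ccnd1, of which 10 are replication genes and none is mitotic. FOXP2-CPED1 clone 4 had 8 higher and 0 lower, against 2.76% and 3.89%, and the 8 were Bub1, Mcm2, Mcm3, Cdc6, Rrm2, Tyms, Uhrf1 and Ccnd1. FOXP2 clone 3 had 0 higher and 11 lower, against 2.8% and 5%. These were 6 mitotic genes (Aurka, Cdc20, Kif20a, Tpx2, Ube2c and Prc1), 3 replication genes (Mcm6, Rrm2 and Uhrf1), Ccnd1 and Myc.

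In the remaining clones Myc was the only gene past 2-fold. It was lower in FOXP2 clone 1, where 1.4% of all rows were higher and 2.42% lower. It was also lower in FOXP2-CPED1 clones 1, 2 and 3, where the background was 2.3% higher and 3.98% lower, 1.14% and 2.15%, and 1.71% and 3.31%. FOXP2 clone 4 had 0 genes in either direction, against 2.13% and 4.05%.

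Among the mitotic genes, the medians of the 22 differences were -0.03 for FOXP2 and -0.04 for FOXP2-CPED1 against the controls, and 0.09 between the constructs. With FOXP2, 9 differences were positive and 13 negative, and with FOXP2-CPED1, 10 and 12. The medians over all rows were 0.02, 0.00 and -0.01. Mki67, the proliferation marker Ki-67 that coats mitotic chromosomes, stood at 35.99 RPKM in the parental and 39.9 in the vector cells, 44.6, 49.4, 24.2 and 46.6 in FOXP2 clones 1 to 4, and 29.3, 34.5, 29.6 and 52.9 in FOXP2-CPED1 clones 1 to 4. Its means were 37.9 ± 2.76 in the controls (SD, n = 2), 41.2 ± 11.5 in the FOXP2 clones (SD, n = 4) and 36.6 ± 11.2 in the FOXP2-CPED1 clones (SD, n = 4). FOXP2 clone 3 was lowest and FOXP2-CPED1 clone 4 highest, and the groups overlapped.

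Cdk1, the kinase that drives entry into mitosis, stood at 130.4 RPKM in the parental and 131 in the vector cells, 117, 219, 71.8 and 111 in FOXP2 clones 1 to 4, and 127, 125, 105 and 182 in FOXP2-CPED1 clones 1 to 4. Its partner cyclin B1, Ccnb1, stood at 39.4 RPKM in the parental and 43.1 in the vector cells, 42.8, 67.2, 22.6 and 41.1 in FOXP2 clones 1 to 4, and 38.9, 39.4, 37.5 and 75.6 in FOXP2-CPED1 clones 1 to 4. For both genes FOXP2 clone 2 and FOXP2-CPED1 clone 4 were above all other libraries and FOXP2 clone 3 below them. The highest clone exceeded the lowest by 3.05-fold for Cdk1 and 3.35-fold for Ccnb1. The limma differences for Cdk1 were -0.12 ± 0.36 with FOXP2 (SE, adjusted p = 0.958) and 0.01 ± 0.36 with FOXP2-CPED1 (adjusted p = 0.997).

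The mitotic genes that varied most between clones were Aurka, Ube2c and Cdc20, which act in sequence from spindle building to anaphase. Aurora A kinase, Aurka, stood at 35.5 RPKM in the parental and 35.5 in the vector cells, 28.3, 50.8, 15.9 and 24.4 in FOXP2 clones 1 to 4, and 28.3, 23.6, 21.5 and 57.3 in FOXP2-CPED1 clones 1 to 4. Cdc20, which activates the anaphase-promoting complex, stood at 79.4 RPKM in the parental and 78.9 in the vector cells, 71.9, 121, 37.2 and 67.5 in FOXP2 clones 1 to 4, and 68.7, 65.1, 54.2 and 134 in FOXP2-CPED1 clones 1 to 4. Ube2c, the ubiquitin-conjugating enzyme of that complex, stood at 105 RPKM in the parental and 109 in the vector cells, 86.3, 155, 49.03 and 76.7 in FOXP2 clones 1 to 4, and 78.2, 89.6, 64.8 and 168 in FOXP2-CPED1 clones 1 to 4. In all 3 genes the controls lay between the 2 high clones and the other 6, so the 2 high clones were above both controls and the other 6 below. Of the Ube2c exonic bases, 22.8% lie opposite Tnnc2, whose reads could not be told apart if counting ignored strand. CHR and CCAAT letters are in the windows of Ube2c and Cdc20 shown above.

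**Figure D2:**
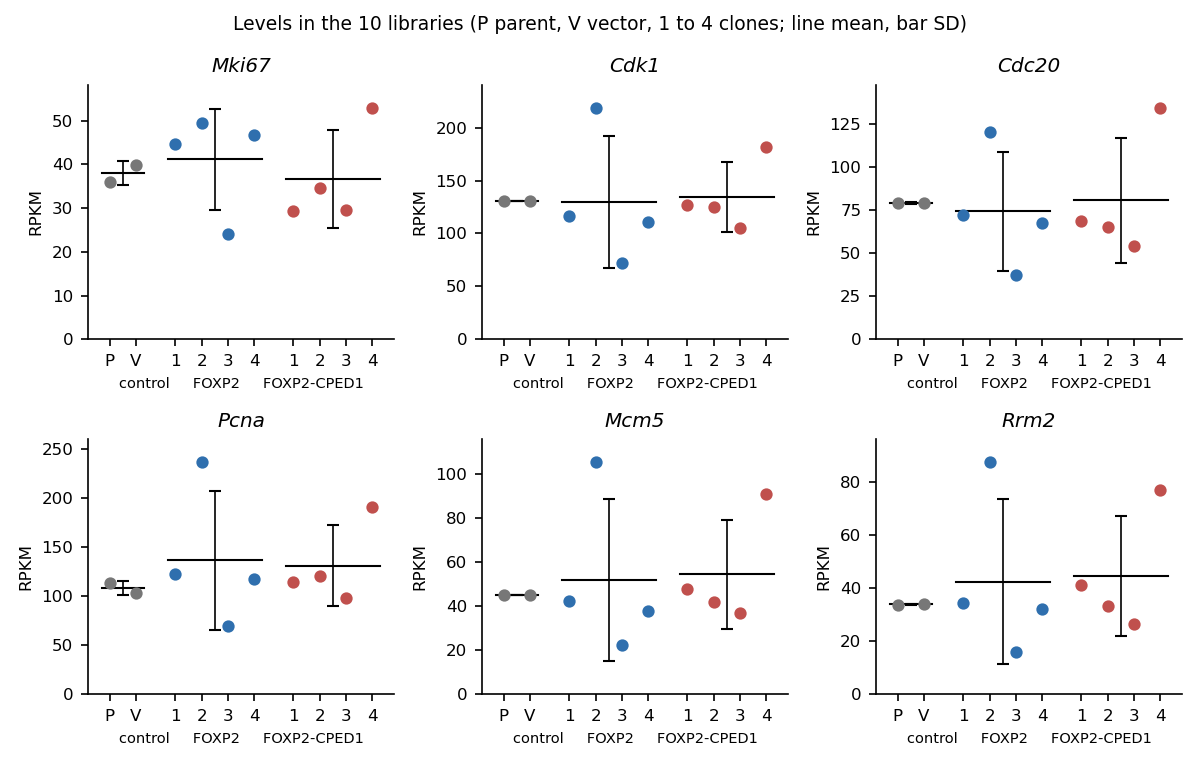
Level in RPKM of Mki67, Cdk1, Cdc20, Pcna, Mcm5 and Rrm2 in the parental (P), vector (V) and clone (1 to 4) libraries, with points for libraries, lines for group means and bars for SDs. In all 6 genes FOXP2 clone 2 and FOXP2-CPED1 clone 4 are above both controls and FOXP2 clone 3 is below them.

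Top2a, the topoisomerase that untangles sister chromatids, stood at 76.8 RPKM in the parental and 76.3 in the vector cells, 82.3, 136, 108 and 73.9 in FOXP2 clones 1 to 4, and 98.6, 73.3, 86.8 and 116 in FOXP2-CPED1 clones 1 to 4. It did not follow Cdk1 in FOXP2 clone 3, where it was above both controls while Cdk1 was lowest. The ratio of Top2a to Cdk1 RPKM was 1.5 in that clone, against 0.589 and 0.584 in the controls and 0.587 to 0.828 in the other 7 clones. The difference from the controls was 0.34 ± 0.25 with FOXP2 (adjusted p = 0.780, limma) and 0.27 ± 0.25 with FOXP2-CPED1 (adjusted p = 0.876), and clones lay on both sides of the controls in both constructs.

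Bub1, a kinase of the spindle checkpoint, stood at 9.78 RPKM in the parental and 9.30 in the vector cells, 11.7, 16.97, 7.62 and 11.4 in FOXP2 clones 1 to 4, and 10.8, 11.6, 10.2 and 20.9 in FOXP2-CPED1 clones 1 to 4. All 4 FOXP2-CPED1 clones were above both controls, and their difference was 0.39 ± 0.32 (adjusted p = 0.865, limma). FOXP2-CPED1 clone 4 was far above the other 3. Birc5, or survivin, a subunit of the chromosomal passenger complex, stood at 65.2 RPKM in the parental and 64.2 in the vector cells, 56.9, 127, 47.5 and 46.7 in FOXP2 clones 1 to 4, and 88.4, 59.4, 62.02 and 118 in FOXP2-CPED1 clones 1 to 4. It had the smallest unadjusted p of the mitotic genes between the constructs, at a difference of 0.31 ± 0.33 (adjusted p = 0.9998), and the constructs overlapped.

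Cenpf, a kinetochore protein, stood at 5.91 RPKM in the parental and 6.02 in the vector cells, 8.18, 7.99, 4.83 and 11.01 in FOXP2 clones 1 to 4, and 5.78, 6.44, 5.76 and 11.7 in FOXP2-CPED1 clones 1 to 4. FOXP2 clone 4 and FOXP2-CPED1 clone 4 were highest and FOXP2 clone 3 lowest. Cenpe, the kinesin that moves chromosomes to the spindle equator, stood at 13.9 RPKM in the parental and 14.3 in the vector cells, 14.4, 18.5, 10.03 and 15.8 in FOXP2 clones 1 to 4, and 10.02, 12.1, 10.4 and 19.03 in FOXP2-CPED1 clones 1 to 4. FOXP2 clone 2 and FOXP2-CPED1 clone 4 were highest, and FOXP2 clone 3 and FOXP2-CPED1 clone 1 lowest. Kif20a, a kinesin of cytokinesis, stood at 33.04 RPKM in the parental and 33.2 in the vector cells, 30.4, 43.1, 15.6 and 25.6 in FOXP2 clones 1 to 4, and 30.6, 27.5, 25.2 and 52.03 in FOXP2-CPED1 clones 1 to 4. Nusap1, which bundles spindle microtubules, stood at 17.5 RPKM in the parental and 16.9 in the vector cells, 16.2, 18.4, 9.49 and 15.03 in FOXP2 clones 1 to 4, and 13.7, 15.3, 13.2 and 21.1 in FOXP2-CPED1 clones 1 to 4. For these 2 genes FOXP2 clone 3 was lowest and FOXP2-CPED1 clone 4 highest. None of the 4 passed the test, with differences from the controls between -0.29 and 0.32.

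The other 9 mitotic genes are Ccnb2, Ccna2, Bub1b, Aurkb, Plk1, Kif11, Tpx2, Prc1 and Hmmr, which encode cyclins, a checkpoint kinase, mitotic kinases, spindle motors and spindle-binding proteins. Their clones ranged from 2.02-fold apart in Bub1b to 3.80-fold in Prc1. FOXP2 clone 3 was the lowest library for 8 of the 9, with FOXP2-CPED1 clone 2 lowest for Bub1b. FOXP2-CPED1 clone 4 was the highest for 6 of them, FOXP2 clone 2 for Aurkb and Plk1, and FOXP2 clone 4 for Ccnb2. Exonic bases opposite another gene made up 12.5% in Ccna2 (Exosc9), 11.1% in Prc1 (Rccd1) and 29.3% in Kif20a (Cdc23), and 1 pseudogene each is named for Ccnb1 and Ccnb2. A further row of Birc5 stood at 0.168 to 0.906 RPKM and was not used.

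Among the replication genes, the medians of the 17 differences were 0.08 for FOXP2 and 0.18 for FOXP2-CPED1, with 13 positive and 4 negative and with 16 and 1. Between the constructs the median was 0.05, with 14 positive and 3 negative. Without FOXP2 clone 2 the FOXP2 medians were -0.24 for mitotic and -0.21 for replication genes, and without FOXP2 clone 3 they were 0.16 and 0.38. Without FOXP2-CPED1 clone 4 the medians of that construct were -0.20 and -0.10. Without FOXP2-CPED1 clone 3 they were 0.09 and 0.31, so single clones decide the sign of the medians in both constructs. Without the 3 libraries whose mitochondrial rows are listed at 0, FOXP2 clone 2 among them, the FOXP2 medians were -0.35 and -0.35 while the medians between the constructs were 0.51 for mitotic and 0.59 for replication genes, with all 22 and all 17 differences positive. With library quality weights the FOXP2-CPED1 replication median was -0.06, with 6 positive and 11 negative, and the mitotic median between the constructs was -0.13, with 3 positive and 19 negative. Mcm2 to Mcm6 encode subunits of the helicase that unwinds DNA at the fork. Mcm2 stood at 51.2 RPKM in the parental and 48.1 in the vector cells, 48.2, 92.1, 24.7 and 64.7 in FOXP2 clones 1 to 4, and 43.96, 52.02, 35.2 and 103 in FOXP2-CPED1 clones 1 to 4. Mcm3 stood at 53.4 RPKM in the parental and 53.9 in the vector cells, 51.3, 135, 30.1 and 56.2 in FOXP2 clones 1 to 4, and 53.6, 48.8, 40.4 and 129 in FOXP2-CPED1 clones 1 to 4. In both, FOXP2 clone 2 and FOXP2-CPED1 clone 4 were above all other libraries and FOXP2 clone 3 below them.

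Mcm4 stood at 32.01 RPKM in the parental and 34.1 in the vector cells, 33.7, 58.3, 19.7 and 29.6 in FOXP2 clones 1 to 4, and 34.5, 31.2, 27.8 and 62.7 in FOXP2-CPED1 clones 1 to 4. Mcm5 stood at 44.9 RPKM in the parental and 45.1 in the vector cells, 42.5, 105, 22.2 and 37.6 in FOXP2 clones 1 to 4, and 48.1, 41.8, 37.1 and 90.97 in FOXP2-CPED1 clones 1 to 4. Mcm6 stood at 61.4 RPKM in the parental and 53.7 in the vector cells, 73.7, 135, 25.9 and 63.1 in FOXP2 clones 1 to 4, and 55.03, 54.7, 45.01 and 110.3 in FOXP2-CPED1 clones 1 to 4. FOXP2 clone 3 was lowest in each of the 3 genes. FOXP2-CPED1 clone 4 was highest for Mcm4 and FOXP2 clone 2 for Mcm5 and Mcm6, and both were above both controls throughout. The highest clone exceeded the lowest by 3.19-fold for Mcm4, 4.74-fold for Mcm5 and 5.22-fold for Mcm6. For Mcm5 the means were 45.04 ± 0.142 RPKM in the controls (SD, n = 2), 51.97 ± 36.7 in the FOXP2 clones (SD, n = 4) and 54.5 ± 24.8 in the FOXP2-CPED1 clones (SD, n = 4). The joined Mcm7 and Taf6 row stood at 91.6 RPKM in the parental and 89.5 in the vector cells, 107, 178, 71.4 and 95.3 in FOXP2 clones 1 to 4, and 101, 97.8, 87.8 and 157 in FOXP2-CPED1 clones 1 to 4, again with the same 3 clones at the ends.

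Pcna, the sliding clamp that holds the polymerase on DNA, stood at 113 RPKM in the parental and 103 in the vector cells, 122, 236, 69.2 and 118 in FOXP2 clones 1 to 4, and 114, 121, 98.5 and 191 in FOXP2-CPED1 clones 1 to 4. FOXP2 clone 2 and FOXP2-CPED1 clone 4 were highest and FOXP2 clone 3 lowest. The difference from the controls was 0.20 ± 0.41 with FOXP2 (adjusted p = 0.937, limma) and 0.23 ± 0.41 with FOXP2-CPED1 (adjusted p = 0.944). Prim1, the primase that starts new strands, stood at 34.2 RPKM in the parental and 30.3 in the vector cells, 35.6, 59.9, 24.03 and 38.9 in FOXP2 clones 1 to 4, and 34.3, 32.9, 29.9 and 52.96 in FOXP2-CPED1 clones 1 to 4. Its order of the extreme clones was that of Pcna.

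Rrm1 and Rrm2 are the subunits of ribonucleotide reductase, which makes deoxynucleotides. Rrm1 stood at 44.2 RPKM in the parental and 44.9 in the vector cells, 51.8, 78.1, 27.3 and 45.1 in FOXP2 clones 1 to 4, and 46.9, 47.02, 42.9 and 84.9 in FOXP2-CPED1 clones 1 to 4. Rrm2 stood at 33.6 RPKM in the parental and 34.00 in the vector cells, 34.4, 87.2, 15.8 and 32.1 in FOXP2 clones 1 to 4, and 40.95, 33.2, 26.5 and 76.95 in FOXP2-CPED1 clones 1 to 4. The fold between the highest and lowest clone was 5.51 for Rrm2 and 3.11 for Rrm1, and Rrm2 had the largest clone SD of the replication genes.

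Tyms, thymidylate synthase, which makes the thymidine nucleotide, was the only gene of the 45 above both controls in all 8 clones. It stood at 18.5 RPKM in the parental and 18.7 in the vector cells, 22.4, 69.9, 23.4 and 19.4 in FOXP2 clones 1 to 4, and 32.1, 24.7, 25.4 and 50.2 in FOXP2-CPED1 clones 1 to 4. Its means were 18.6 ± 0.101 RPKM in the controls (SD, n = 2), 33.8 ± 24.2 in the FOXP2 clones (SD, n = 4) and 33.1 ± 11.9 in the FOXP2-CPED1 clones (SD, n = 4). The difference was 0.62 ± 0.46 with FOXP2 (adjusted p = 0.785, limma) and 0.74 ± 0.46 with FOXP2-CPED1 (adjusted p = 0.808), so it did not pass the test. Of all tested rows, 5.44% were above both controls in all 8 clones, 9.13% in the FOXP2 clones and 12.2% in the FOXP2-CPED1 clones, so 1 gene of 45 is under the background.

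In FOXP2 clone 3, where Pcna was lowest, Tyms was above both controls. The ratio of Tyms to Pcna was 0.338 in that clone and 0.296 in FOXP2 clone 2, against 0.164 and 0.181 in the controls and 0.165 to 0.281 in the other 6 clones. For Tyms 1 pseudogene is named and for Pcna 2, and they could share reads.

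Cdc6, which loads the helicase at origins, stood at 6.15 RPKM in the parental and 6.84 in the vector cells, 7.88, 21.8, 5.18 and 6.58 in FOXP2 clones 1 to 4, and 10.2, 7.23, 7.10 and 20.7 in FOXP2-CPED1 clones 1 to 4. All 4 FOXP2-CPED1 clones were above both controls, and FOXP2 clone 3 was below them. The difference was 0.59 ± 0.52 with FOXP2-CPED1 (adjusted p = 0.872, limma) and 0.40 ± 0.52 with FOXP2 (adjusted p = 0.887). With Tyms and Bub1, Cdc6 makes 3 genes whose FOXP2-CPED1 clones were all above the controls, against the 12.2% of all rows. The other 6 replication genes are Mcm10, Gins1, Cdc45, Fen1, Chaf1a and Uhrf1, which act in origin firing, in flap removal and in chromatin and methylation behind the fork. In all 6 FOXP2 clone 2 was the highest library and FOXP2 clone 3 the lowest, from 3.00-fold apart in Fen1 to 4.98-fold in Uhrf1. Exonic bases opposite another gene made up 84.2% in Fen1 (Gm10143 and Tmem258) and 52.5% in Chaf1a (Ubxn6), so these 2 values are uncertain.

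**Figure D3:**
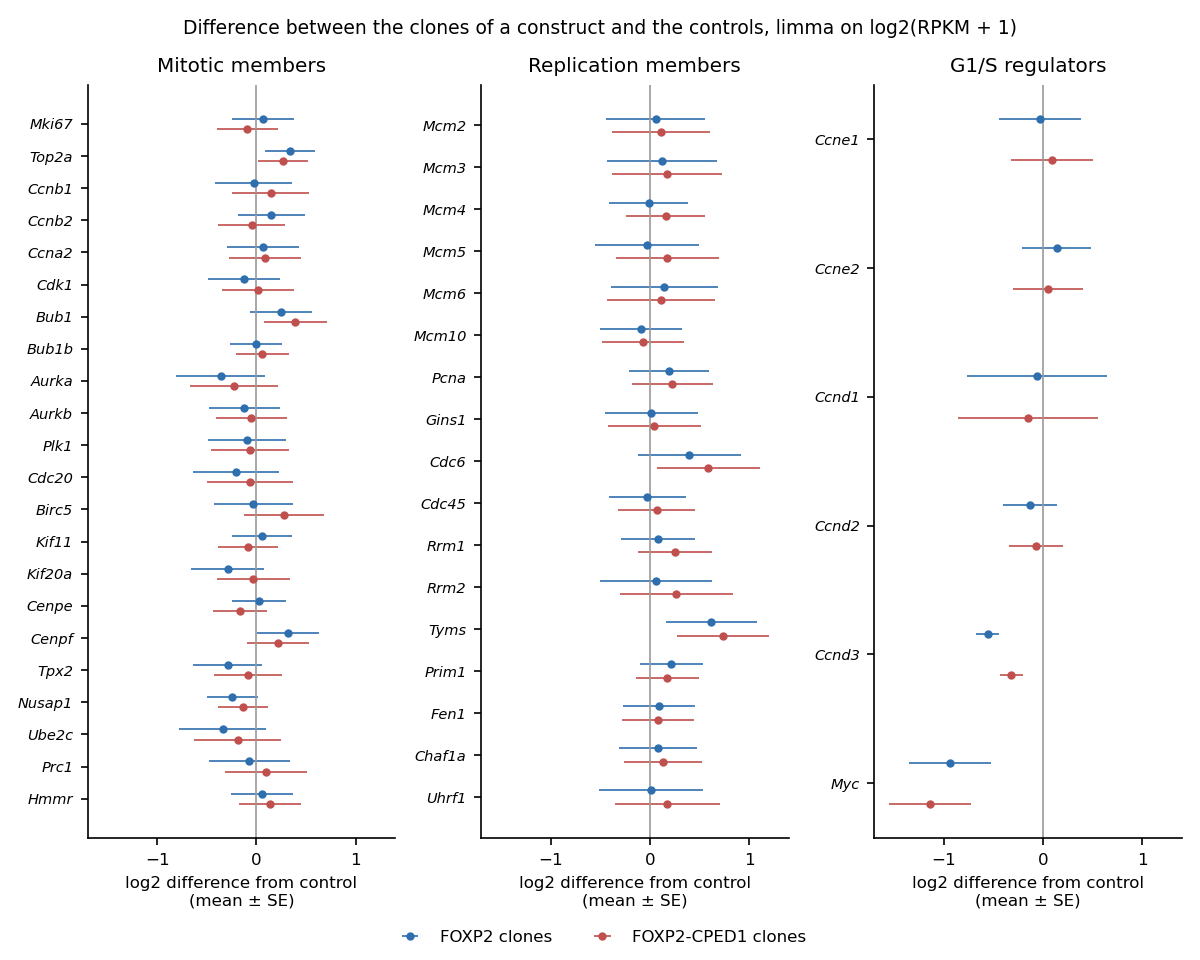
Differences of the FOXP2 and the FOXP2-CPED1 clones from the controls for each of the 45 genes, from limma on log2(RPKM + 1), with SE bars. Tyms lies furthest above 0 and Myc and Ccnd3 furthest below in both constructs, and no difference passed the test.

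Of the G1/S regulators, Ccnd3 and Myc were the genes below both controls in all 8 clones. Ccnd3 encodes cyclin D3, a partner of the kinases that phosphorylate RB. It stood at 78.5 RPKM in the parental and 77.8 in the vector cells, 51.8, 52.4, 53.97 and 52.7 in FOXP2 clones 1 to 4, and 66.96, 65.2, 56.8 and 60.5 in FOXP2-CPED1 clones 1 to 4. The means were 78.2 ± 0.453 RPKM in the controls (SD, n = 2), 52.7 ± 0.917 in the FOXP2 clones (SD, n = 4) and 62.4 ± 4.59 in the FOXP2-CPED1 clones (SD, n = 4). All 4 FOXP2 clones lay below all 4 FOXP2-CPED1 clones, and these below both controls. The difference was -0.56 ± 0.12 with FOXP2 (adjusted p = 0.101, limma), -0.32 ± 0.12 with FOXP2-CPED1 (adjusted p = 0.517) and 0.24 ± 0.09 between the constructs (adjusted p = 0.9998). A pseudogene named for Ccnd3 could share its reads.

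Myc, a transcription factor that promotes growth and entry into S phase, stood at 87.5 RPKM in the parental and 80.3 in the vector cells, 32.01, 65.7, 33.5 and 49.5 in FOXP2 clones 1 to 4, and 35.6, 30.7, 23.9 and 74.9 in FOXP2-CPED1 clones 1 to 4. The means were 83.9 ± 5.06 RPKM in the controls (SD, n = 2), 45.2 ± 15.8 in the FOXP2 clones (SD, n = 4) and 41.3 ± 22.9 in the FOXP2-CPED1 clones (SD, n = 4). FOXP2 clone 2 and FOXP2-CPED1 clone 4, the 2 clones with high replication genes, were the highest clones for Myc but stayed below the controls. The difference was -0.94 ± 0.41 with FOXP2 (adjusted p = 0.574, limma) and -1.14 ± 0.41 with FOXP2-CPED1 (adjusted p = 0.525). With library quality weights Ccnd3 and Myc passed in both comparisons with the controls, and they passed in no other alternative. The weights called these 2 of 45 genes, both lower. Of all 12842 rows they called 2095 with FOXP2, 1082 of them lower, and 929 with FOXP2-CPED1, 586 of them lower.

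The background for such a separation is broad. Below both controls in all 8 clones were 6.38% of all tested rows, 10.4% in the FOXP2 clones and 13.3% in the FOXP2-CPED1 clones, while 2 of 45 genes did so in each case. For FOXP2-CPED1 clones all above FOXP2 clones, the background was 0.576%, and Ccnd3 was the 1 gene of 45. For the opposite order it was 0.802%, and 0 of 45 genes showed it.

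Ccnd1, cyclin D1, a D cyclin induced by growth factors, had the widest clone range of the 45 genes. It stood at 46.9 RPKM in the parental and 48.5 in the vector cells, 42.7, 114, 15.4 and 56.7 in FOXP2 clones 1 to 4, and 32.1, 36.03, 26.5 and 109 in FOXP2-CPED1 clones 1 to 4. FOXP2 clone 2 and FOXP2-CPED1 clone 4 were above both controls, FOXP2 clone 4 was also above them, and FOXP2 clone 3 was lowest, 7.42-fold below the highest clone. Its clone SD was larger than that of 97.7% of all tested rows. Of the Ccnd1 exonic bases, 23.4% lie opposite LTO1.

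Ccnd2, cyclin D2, did not follow Ccnd1. It stood at 57.9 RPKM in the parental and 67.3 in the vector cells, 68.9, 40.7, 45.5 and 80.95 in FOXP2 clones 1 to 4, and 51.9, 75.6, 53.98 and 58.4 in FOXP2-CPED1 clones 1 to 4. FOXP2 clone 2, highest for Ccnd1, was the lowest library for Ccnd2, and FOXP2 clone 4 was the highest. Ccnd1 made up 25.6% and 25% of the summed D cyclin RPKM in the controls, 55.1% in FOXP2 clone 2, 47.8% in FOXP2-CPED1 clone 4 and 13.4% in FOXP2 clone 3. In the other 5 clones it made up 19.3 to 29.8%.

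Cyclin E activates CDK2 at the start of S phase. Ccne1 stood at 13.03 RPKM in the parental and 14.6 in the vector cells, 12.9, 25.7, 7.56 and 12.6 in FOXP2 clones 1 to 4, and 14.3, 15.1, 9.39 and 23.01 in FOXP2-CPED1 clones 1 to 4. Ccne2, of whose exonic bases 17.4% lie opposite Ints8, stood at 5.24 RPKM in the parental and 5.21 in the vector cells, 6.33, 11.03, 3.73 and 4.27 in FOXP2 clones 1 to 4, and 5.77, 4.55, 4.22 and 7.77 in FOXP2-CPED1 clones 1 to 4. Both were highest in FOXP2 clone 2, next highest in FOXP2-CPED1 clone 4 and lowest in FOXP2 clone 3, so they followed the replication genes. Their differences from the controls lay between -0.03 and 0.14, and neither passed. The joined row of Necab3 and E2f1, the E2F activator, stood at 22.4 RPKM in the parental and 15.6 in the vector cells, 14.9, 24.7, 14.9 and 15.4 in FOXP2 clones 1 to 4, and 16.6, 16.8, 13.8 and 17.2 in FOXP2-CPED1 clones 1 to 4, and the part of each gene cannot be told apart.

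**Figure D4:**
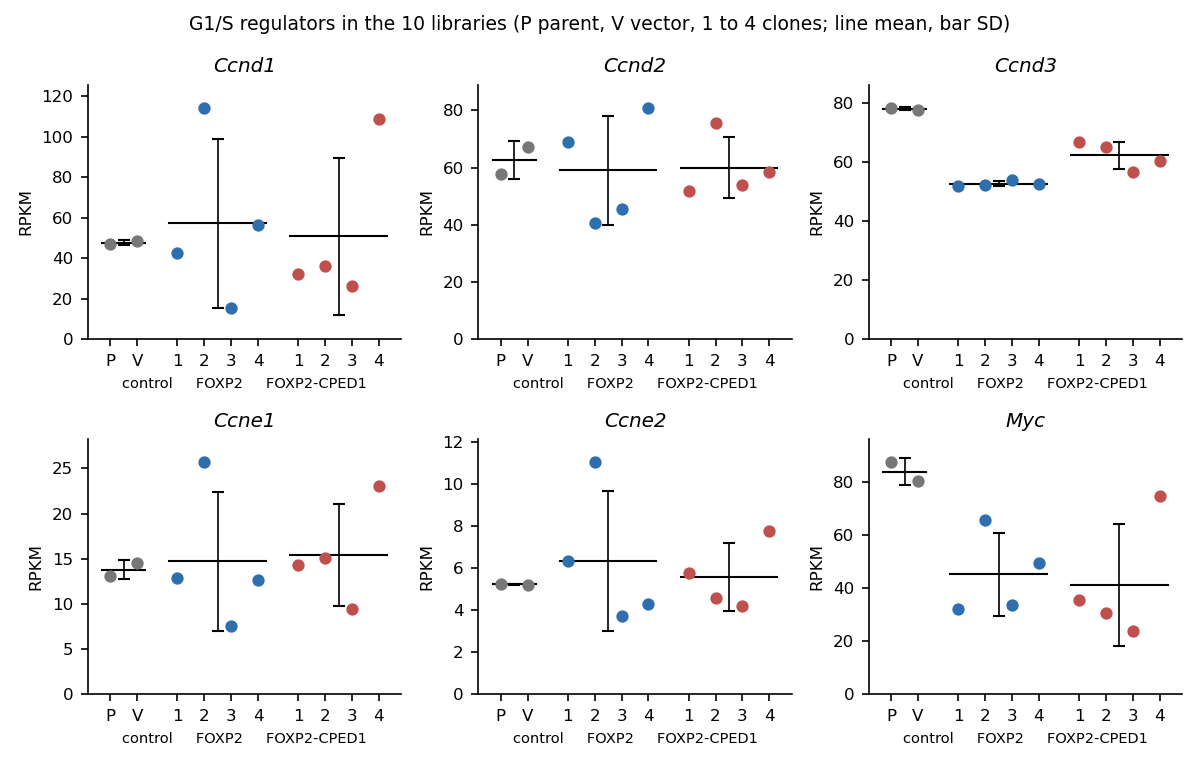
Level in RPKM of the 6 G1/S regulators in the parental (P), vector (V) and clone (1 to 4) libraries, with points for libraries, lines for group means and bars for SDs. Ccnd3 and Myc lie below both controls in all 8 clones, Ccnd1 is highest in FOXP2 clone 2 and FOXP2-CPED1 clone 4, and Ccnd2 is lowest in FOXP2 clone 2.

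Wider lists of the same pathway were read from the same test. Of 49 further replication genes 48 were tested, of 68 further mitotic genes 63, of 35 genes of CDK, RB and E2F control 30, and of 10 MYC partner genes 8. In each list 0 genes were called in any of the 3 comparisons. Further replication genes had medians of 0.13 with FOXP2, 0.21 with FOXP2-CPED1 and 0.06 between the constructs, and further mitotic genes 0.03, 0.11 and 0.07. CDK, RB and E2F genes had medians of 0.09, 0.04 and 0.00, and MYC partners -0.03, 0.01 and 0.05.

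By clone, the further replication and mitotic lists were high and low in the same 3 clones as the 45 genes. In FOXP2 clone 2 the further replication genes had a median of 0.82 and the further mitotic genes 0.54, with 46 of 48 and 61 of 63 above the control mean. In FOXP2-CPED1 clone 4 the medians were 0.70 and 0.60, with 46 of 48 and 62 of 63 above. In FOXP2 clone 3 they were -0.40 and -0.55, with 8 of 48 and 1 of 63 above. The replication median exceeded the mitotic one by 0.29 in FOXP2 clone 2, by 0.10 in FOXP2-CPED1 clone 4 and by 0.15 in FOXP2 clone 3. FOXP2 clone 2 was highest for 35 of 48 further replication genes, and FOXP2-CPED1 clone 4 for 36 of 63 further mitotic genes. The CDK, RB and E2F list had medians nearer 0, at 0.27 for FOXP2 clone 2, 0.16 for FOXP2-CPED1 clone 4, -0.11 for FOXP2 clone 3 and 0.14 for FOXP2-CPED1 clone 1. The 8 MYC partners had medians of the opposite sign, at -0.16, -0.29 and 0.12 in the same 3 clones. Medians of like size also stood outside these clones. They were -0.06 and -0.19 in FOXP2 clones 1 and 4, and 0.08, 0.12 and 0.02 in FOXP2-CPED1 clones 1 to 3. The parental and vector cells had 0.09 and -0.09.

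**Figure D5:**
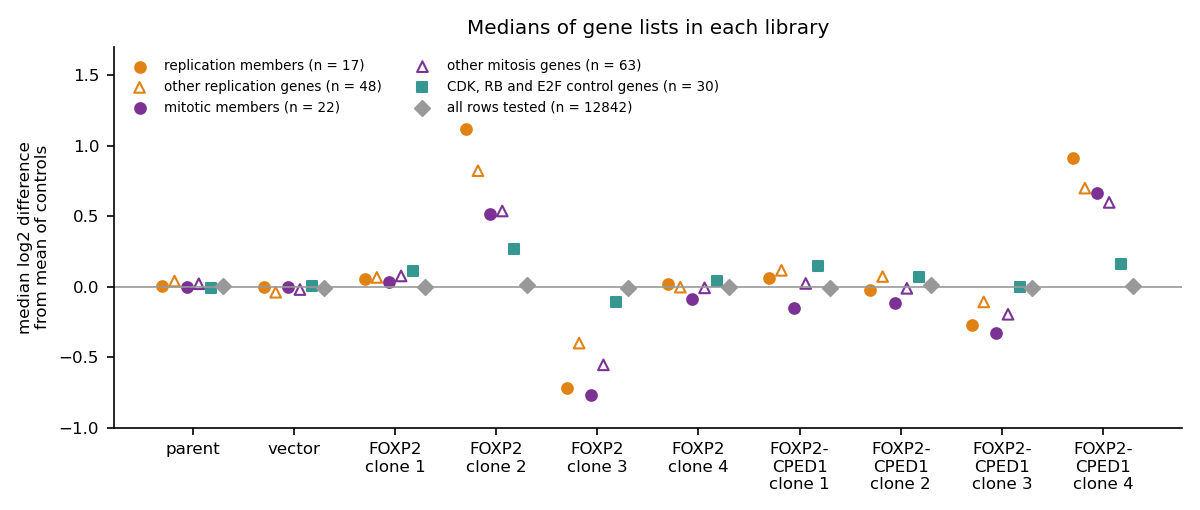
Median difference from the control mean in each of the 10 libraries, as log2(RPKM + 1), for the mitotic and replication genes, the further genes of both kinds, the CDK, RB and E2F control genes and all tested rows. In FOXP2 clone 2 and FOXP2-CPED1 clone 4 the replication lists lie at 0.70 to 1.12 and the mitotic lists at 0.52 to 0.66, and in FOXP2 clone 3 these 4 lists lie below 0.

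From each wider list the 2 genes with the smallest p are given, which for replication were Orc2 and Cdc7. Orc2, a subunit of the complex that marks origins, stood at 10.3 RPKM in the parental and 8.84 in the vector cells, 14.2, 27.4, 14.2 and 15.95 in FOXP2 clones 1 to 4, and 15.00, 15.1, 14.2 and 27.1 in FOXP2-CPED1 clones 1 to 4. Its difference was 0.79 ± 0.31 with FOXP2 (adjusted p = 0.487, limma) and 0.79 ± 0.31 with FOXP2-CPED1 (adjusted p = 0.572). All 8 clones were above both controls, as they were for 5.44% of all tested rows, and Orc2 was picked by its p. Cdc7, the kinase that fires origins, had a difference of 0.51 ± 0.21 with FOXP2-CPED1 (adjusted p = 0.640). Among further mitotic genes, Zwint, a kinetochore protein, had 0.40 ± 0.17 (adjusted p = 0.632) and Pbk, a mitotic kinase, 0.62 ± 0.40 (adjusted p = 0.824), both with FOXP2-CPED1. E2f3 had 0.34 ± 0.14 and Cdk6 0.55 ± 0.25, and of the MYC partners Mxi1 had -0.41 ± 0.23 and Mlxip 0.34 ± 0.27, all with FOXP2-CPED1 and all short of the threshold.

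The wider lists also hold genes that were low in the 2 clones where the replication genes were high. Cdkn1b, Ccng2 and Mxd4 are named here, with Skp2, after their values were seen. Of the 30 CDK, RB and E2F control genes tested, FOXP2 clone 2 was lowest for 6 and highest for 10. Over all tested rows it was lowest for 16.8% and highest for 23.6%. FOXP2-CPED1 clone 4 was lowest for 2 of the 30 and highest for 7, against 13% and 9.94% of all rows. Cdkn1b, the CDK inhibitor p27, stood at 53.9 RPKM in the parental and 56.7 in the vector cells, 70.99, 28.8, 56.4 and 84.4 in FOXP2 clones 1 to 4, and 53.7, 68.6, 68.3 and 38.3 in FOXP2-CPED1 clones 1 to 4. Ccng2, a cyclin of cells leaving the cycle, stood at 12.4 RPKM in the parental and 11.8 in the vector cells, 28.2, 6.61, 26.8 and 18.4 in FOXP2 clones 1 to 4, and 23.5, 21.9, 28.4 and 7.46 in FOXP2-CPED1 clones 1 to 4. Both were lowest in FOXP2 clone 2, with FOXP2-CPED1 clone 4 next. In FOXP2 clone 3 Ccng2 was above both controls, while Cdkn1b lay beside them. Ccng2 was also above both controls in FOXP2 clones 1 and 4 and FOXP2-CPED1 clones 1 to 3, and Cdkn1b was highest in FOXP2 clone 4. Outside the 2 high clones these genes did not mirror the replication genes. Skp2, the ubiquitin ligase subunit that removes p27, stood at 5.51 RPKM in the parental and 6.23 in the vector cells, 6.36, 11.04, 5.36 and 5.70 in FOXP2 clones 1 to 4, and 8.45, 6.81, 7.24 and 10.6 in FOXP2-CPED1 clones 1 to 4. Skp2 ran with the replication genes instead, highest in the same 2 clones and lowest in FOXP2 clone 3. Mxd4, a MYC antagonist, was lowest in FOXP2-CPED1 clone 4 at 11.4 RPKM and FOXP2 clone 2 at 13.2, against 35.8 and 30.7 in the controls. None of these 4 passed the test.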

How the data were processed

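RNA of 10 NIH3T3 cultures (2 controls and 4 independent clones per construct) was isolated with Trizol and sequenced from NEBNext Ultra libraries, per the labels' protocols. The authors deposited 1 table of RPKM values, normalized for transcript length and mapped reads. It has 1 column for each library, per the file headers. HISAT2, StringTie and the mouse genome mm9 are named in the submitters' processing notes. For versions, annotation, strand setting and filters the sources used here state nothing. Strand and the sharing of reads with overlapping genes or pseudogenes could change a value. Overlaps were read from GENCODE M21 on GRCm38, a later build than mm9, so no coordinates of the files' build are given.

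Of 18430 rows, 3581 name no gene and were left out, 987 join several genes and 571 symbols have several rows, of which the row with the highest mean was used. No count model was run on RPKM. Values were transformed as log2(RPKM + 1), and rows reaching 1 RPKM in at least 2 of 10 libraries (12842 rows) were fitted with limma 3.58.1 in R 4.3.3 (3 arms, moderated with a trend, two-sided, Benjamini-Hochberg over all rows, threshold 0.05). Differences on this scale understate changes of low genes. The p-values rest on the spread within the 3 arms, moderated over all rows. That spread is between clones for the constructs and between parental and vector cells for the controls. Relative depth was read from the steps of low values, as the most common ratio near 1 to the parental library. Only 9.53% to 17.8% of the low rows of a library lay at that ratio, so it is an estimate. Python 3.11.15, pandas 2.3.3 and matplotlib 3.10.9 were used for the descriptions. The fit was also run on simulated data with independent errors and with larger differences than those of the genes described here. That run does not give the power for these genes.

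The genes, the lists and the tests were chosen with earlier results of these data known. Every library is given for genes past the threshold, for the 3 genes per class with the smallest p in each comparison and with the largest clone SD, and always for 15 genes (Mki67, Top2a, Ccnb1, Cdk1, Mcm2, Mcm5, Pcna, Rrm2, E2f1 and the cyclin D and E genes and Myc). From each wider list the 2 genes with the smallest p were named. Clones with the same number are independent by the design text and did not deviate together (r of -0.04, -0.24, 0.28 and 0.17 across tested rows), so they were not treated as pairs. Alternatives were a pseudocount of 0.1, no filter, a mean of at least 5 RPKM, quantile and median ratio scaling, a fit restricted to the arms compared, library quality weights, a block for the clone number, summed rows of a symbol, each library left out in turn, and the 3 libraries with mitochondrial rows at 0 left out.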

Additional observations from a re-analysis of the deposited data

Results flagged for a closer look

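In 19 of the values of the 45 genes, 1 clone stood far from the other 3 clones of its construct, with a gap to the nearest that exceeds Dixon's critical share of the whole range of the 4. The gaps were taken on RPKM and not on log2(RPKM + 1), a scale on which high values stand further apart. There were 90 such groups of 4 clones, and genes of 1 clone are not independent. Chance flags about 1 in 20 groups only where values are normally distributed, which was not tested. The count of 19 is therefore no measure of an excess. FOXP2-CPED1 clone 4 was the high one for 12 of the values: Ccnb1 at 75.6 RPKM, Ccna2 at 61.6, Bub1 at 20.9, Bub1b at 36.5, Plk1 at 57.6, Cenpf at 11.7, Hmmr at 26.6, Mcm3 at 129 RPKM, Mcm6 at 110.3, Gins1 at 26.7, Rrm1 at 84.9 and Ccnd1 at 109. FOXP2 clone 2 was the high one for Birc5 at 127 RPKM, Mcm10 at 29.0, Gins1 at 39.7, Cdc6 at 21.8 and Tyms at 69.9. FOXP2 clone 3 was the low one for Kif11 at 11.01 RPKM and Hmmr at 9.58.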

How the results depend on the processing

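In the comparison of FOXP2 with the controls 56 genes were called. This was 37 with a pseudocount of 0.1, 2095 with library quality weights, 9 with only the arms compared, 23 without the 3 libraries with mitochondrial rows at 0, and 2 to 64 with each library left out. For FOXP2-CPED1 against the controls 45 genes were called, 28 with the pseudocount, 929 with the weights and 0 to 57 with each library left out. Between the constructs 0 were called, 4 with the weights and 0 to 1 with each library left out. Of the 45 genes 0 were called in all of these except the weights. With the weights, where 2095 and 929 of 12842 rows were called against the controls, 2 of the 45 were called in each case. These were Ccnd3 (-0.58, adjusted p = 0.000823, and -0.34, adjusted p = 0.0317, limma) and Myc (-1.29, adjusted p = 0.00367, and -1.43, adjusted p = 0.00724). The cause was not tested. Without the 3 libraries the G1/S median was -0.50 with FOXP2, and between the constructs the mitotic, replication and G1/S medians were 0.51, 0.59 and 0.34. With the weights the medians were 0.02, 0.03 and -0.13 with FOXP2, -0.18, -0.06 and -0.23 with FOXP2-CPED1, and -0.13, -0.06 and -0.18 between the constructs. With each library left out the medians ranged from -0.24 to 0.16 (mitotic), -0.21 to 0.38 (replication) and -0.41 to 0.09 (G1/S) with FOXP2. They ranged from -0.20 to 0.09, -0.10 to 0.31 and -0.21 to 0.02 with FOXP2-CPED1, and from -0.13 to 0.30, -0.19 to 0.40 and -0.20 to 0.21 between the constructs. The values of single genes stayed on the same side of the threshold in 853 of 855, 853 of 855 and 900 of 900 alternatives. With the clone number as a replicate block, which could be fitted only between the constructs since the controls carry no clone number, 0 genes were called and the medians were 0.09, 0.05 and -0.01. Absolute depth is unknown, so no limit on low values from counting could be given.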
